A study of Mus musculus with 3 samples.

Results

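Lcn2 encodes lipocalin 2, the secreted protein also called neutrophil gelatinase-associated lipocalin (NGAL), and its transcript was counted here in single cells of mouse kidney. Lcn2 is 1 of the 22535 genes that the 3 count tables list between them. It was followed over 26760 cells, namely the barcodes with at least 200 genes and at most 50% of their UMIs (unique molecular identifiers, each standing for 1 captured transcript) from mitochondrial genes. Each cell was assigned to a cell type from marker genes, and Lcn2 was left out of the genes that formed the clusters. Lcn2 was chosen by its own UMI counts in these libraries, for how they differ between cell types, so its levels are a description and carry no test.

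NGAL belongs to the lipocalins, small proteins that carry hydrophobic ligands in a barrel-shaped pocket. It binds bacterial siderophores and so withholds iron from bacteria, and it was first purified from neutrophil granules together with the gelatinase MMP9. In the kidney it is known as an early marker of acute kidney injury that is measured in urine and plasma, and its transcript is known to be made by injured cells of the distal nephron, while filtered NGAL is taken up in the proximal tubule through megalin, the product of Lrp2. Its promoter is known to be driven by NF-kB, C/EBP and STAT3 downstream of interleukin-1, interleukin-17 and interleukin-6 family cytokines.

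The cells came from the kidney cortex of adult WT1CreERT2; Rosa26-tdTfl/+ mice, in which a tamoxifen-inducible Cre knocked into the WT1 locus turns on the red reporter tdT in WT1+ cells, mainly podocytes and a subset of the parietal epithelial cells (PECs) that line Bowman's capsule. Sham was a mixture of kidney cells after sham surgery with tdT+ cells enriched. IRI24h-TDN mixed tdT+ cells with a smaller number of tdT- cells 24 h after both kidneys had gone through severe ischemia and reperfusion (IRI). IRI24h-TD was made of tdT+ cells alone at that time. All 3 groups carry the Cre and the reporter. Each group is 1 library. The study's methods give 4 kidneys per group, but the cells carry no label of the animal, so there is no replicate check, and the intervals below (95%, exact) cover counting error only. Since cells were sorted and mixed before capture, the number of cells of a type in a library reflects the sort as well as the tissue.

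Sham gave 8047 kept barcodes (median 7746 UMIs), IRI24h-TDN 9024 (9151) and IRI24h-TD 9689 (9529). Between 82 and 96 kept barcodes were shared by any pair of libraries. Named classes showed their markers: Umod had a UMI in 88.4% of the ascending limb-like cells of Sham and in 96.8% of those of IRI24h-TDN, and Slc12a3 in 100% and 99.8% of the distal convoluted tubule-like cells. Some marker levels were lower after IRI, with Slc34a1 at 4955 UMIs per 1000000 UMIs (CPM) in the proximal tubule-like cells of Sham and 592 CPM in those of IRI24h-TDN. Clusters led by mitochondrial genes, shallow with no leading marker, or richer in markers of another class were left unnamed (1181 cells in 5 clusters). They included 469 cells led by Col3a1, Dcn and Col1a1, with fibroblast as their best marker score. Another 57 cells, led by Igha, Igkc and Jchain, scored best as lymphocytes.

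Lcn2 lies on the minus strand of mouse chromosome 2, at chr2:32384633-32388252 in GRCm38 (mm10), and is annotated with 6 transcripts, of which 2 are protein coding. The coding transcript with 6 exons starts at base 32387797. The annotated neighbour on its 3′ side, 1110008P14Rik, lies on the same strand with 2694 bases between them, and Ciz1, on the plus strand, is 3662 bases away. The 192 bases just upstream of that start, chr2:32387798-32387989 on the minus strand (RefSeq, GRCm38.p6), are shown because the transcript is far more abundant after IRI and this is the proximal part of its promoter. Part of this window also lies in exon 2 of the other coding transcript, Lcn2-206. The capitals mark a match to a C/EBP motif.
Lcn2 upstream: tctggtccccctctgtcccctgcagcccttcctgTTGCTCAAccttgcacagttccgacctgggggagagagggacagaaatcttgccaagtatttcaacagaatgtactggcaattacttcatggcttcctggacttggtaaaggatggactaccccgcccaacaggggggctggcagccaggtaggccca
The match begins 158 bases before the start. The motif searched was TTGCNNAA on both strands, and of 32851 windows of the same length, taken from the same place in the RefSeq table, 7.84% held a match. No match was found to the STAT motif TTCNNNGAA, to the core promoter element TATAAA or to the NF-kB motif, all on both strands, which 5.56%, 8.82% and 3.03% of the windows held. These motifs were chosen after the sequence had been seen, and a match of letters does not show a bound site.

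Lcn2 was concentrated in the distal nephron in all 3 libraries and was far more abundant after IRI. Sham cells held 706 Lcn2 UMIs (10.9 CPM), IRI24h-TDN cells 71753 (813 CPM) and IRI24h-TD cells 3005 (32.4 CPM). Ascending limb-like, distal convoluted tubule-like and connecting tubule-like cells together made up 5.02% of the Sham cells and held 84.0% of the Lcn2 UMIs of that library. In IRI24h-TDN they were 13.9% of the cells with 94.3% of the Lcn2 UMIs, and in IRI24h-TD 0.65% of the cells with 82.1%. In IRI24h-TDN the order of the levels was ascending limb-like, distal convoluted tubule-like, connecting tubule-like, neutrophil-like, PEC-like and endothelial-like cells, and each of these steps was larger than its counting interval. Further down the same order, monocytic-like and intercalated-like cells could not be separated (ratio 0.979 to 1.31), and neither could the 12 lymphocyte-like cells from their neighbours.

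**Figure D1:**
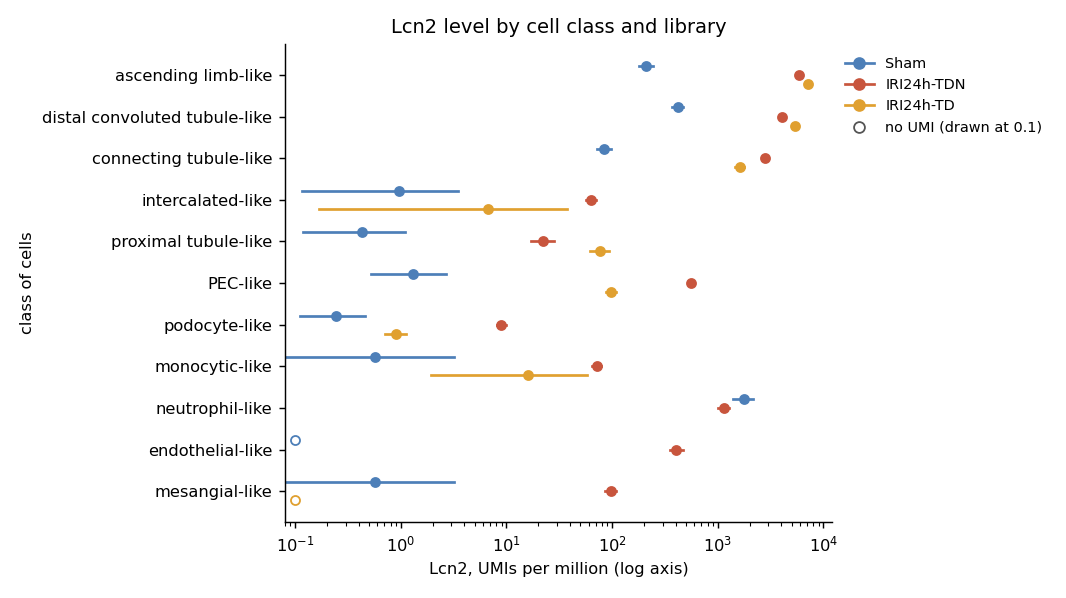
Lcn2 level (CPM, log axis) in 11 classes of cells, with 1 point per library (Sham blue, IRI24h-TDN red, IRI24h-TD yellow) and exact 95% counting intervals as lines. Groups of fewer than 10 cells are not drawn, and open circles stand for groups with no UMI. After IRI the 3 classes at the top lie between 1611 and 7133 CPM, while the podocyte-like cells lie at 8.95 and 0.896 CPM.

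Ascending limb-like cells, the segment that reabsorbs salt through Slc12a1 and secretes uromodulin (Umod), had the highest Lcn2 level after IRI. Lcn2 was at 209 CPM in the 121 cells of Sham (180 to 242), at 5933 CPM in the 471 cells of IRI24h-TDN (5866 to 6000) and at 7133 CPM in the 14 cells of IRI24h-TD (6715 to 7570). Both IRI libraries were above Sham and their intervals did not meet it. The level in IRI24h-TDN was 28.4-fold that of Sham (24.5 to 33.1). At least 1 Lcn2 UMI was present in 10.7% of the Sham cells and in 98.7% of the IRI24h-TDN cells, where the median cell held 47 Lcn2 UMIs and the fullest 379. The signal was spread over the class, with 10 or more Lcn2 UMIs in 426 of the 471 cells, and the 48 fullest cells held 32.1% of the UMIs.

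In Sham most of the signal lay in few cells. A single ascending limb-like cell held 104 of the 181 Lcn2 UMIs of its class, among 17393 UMIs in all. It also held 1064 UMIs of Spp1 (osteopontin) and 161 of Clu (clusterin), both known injury genes, and 1 UMI of Havcr1 (KIM-1). Without it, the Sham level was 90.7 CPM (71.6 to 113) and the difference was 65.4-fold (52.3 to 82.9). Its barcode did not occur in another library and its doublet score was not among the highest. Ascending limb-like cells with Nos1, the gene of the macula densa, had 5190 CPM in 13 cells of IRI24h-TDN against 5948 CPM in the other 458 cells, whereas no Lcn2 UMI was found in the 23 such cells of Sham, which allows up to 28.5 CPM.

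Distal convoluted tubule-like cells, which carry the thiazide-sensitive transporter Slc12a3, followed. Lcn2 stood at 416 CPM in the 48 cells of Sham (367 to 471), at 4100 CPM in the 450 cells of IRI24h-TDN (4052 to 4148) and at 5394 CPM in the 20 cells of IRI24h-TD (5052 to 5752). The 2 IRI libraries were again above Sham, and IRI24h-TDN was 9.85-fold higher (8.71 to 11.2). All of the Sham signal came from 2 of 48 cells, and 1 of them held 212 of the 254 UMIs. That cell held 67 UMIs of Umod beside 68 of Slc12a3, with 492 of Spp1 and 357 of Clu. Leaving it out gave 71.1 CPM in Sham (51.3 to 96.2) and a difference of 57.6-fold (42.6 to 80.0), so the size of the difference in this class rests on 1 Sham cell. The mix of Umod and Slc12a3 was common in the class, since Umod had a UMI in 87.5% of the Sham cells and in 89.6% of the IRI24h-TDN cells named distal convoluted tubule-like.

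Among the distal convoluted tubule-like cells of IRI24h-TDN, 88.9% had Lcn2 (85.6% to 91.6%), with a median of 33.5 UMIs, an upper quartile of 87.0 and a highest value of 731. The spread was wide: 50 of the 450 cells had no Lcn2 UMI and 332 had 10 or more. When each cell was named from its own marker scores instead of its cluster, the share with Lcn2 was 64.8%.

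Connecting tubule-like cells had the lowest level of the 3 segments after IRI but the largest fold among them. Most cells of this class were rich in Aqp2, as are the principal cells that respond to vasopressin. At least 10 Aqp2 UMIs were found in 263 of 331 cells in IRI24h-TDN and in 198 of 235 in Sham. In IRI24h-TDN these Aqp2-rich cells held 9209 of the 9641 Lcn2 UMIs of the class. Lcn2 was at 84.3 CPM in the 235 cells of Sham (71.7 to 98.5), at 2815 CPM in the 331 cells of IRI24h-TDN (2759 to 2872) and at 1611 CPM in the 29 cells of IRI24h-TD (1466 to 1767). The IRI24h-TDN level was 33.4-fold that of Sham (28.5 to 39.3), and 40.4-fold (34.0 to 48.4) without the fullest Sham cell, which held 28 of the 158 UMIs. With these single Sham cells left out, the ascending limb-like and distal convoluted tubule-like cells had the larger folds, so the order of the folds over the 3 segments depends on them. Lcn2 was present in 16.2% of the Sham cells and in 88.8% of the IRI24h-TDN cells, with a median of 11 UMIs and a highest value of 479. Its signal was less even than in the other segments, as the 34 fullest cells held 50.3% of the UMIs and 177 of 331 cells had 10 or more.

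Within this class Lcn2 went with Aqp2, the water channel of principal cells. In IRI24h-TDN, the 263 cells with at least 10 Aqp2 UMIs had 3150 CPM of Lcn2 (3086 to 3215) and the other 68 cells 862 CPM (783 to 948). In Sham the same split gave 92.7 CPM in 198 cells and 5.54 CPM in 37 cells, the latter from 1 UMI. In IRI24h-TD it gave 1686 CPM in 16 cells (1526 to 1858) and 1142 CPM in 13 cells (830 to 1533), where the intervals overlapped. In Sham and IRI24h-TDN the Aqp2-rich cells were higher beyond counting error, and they also had the higher depth (medians of 10246 and 6613 UMIs per cell in IRI24h-TDN). CPM corrects for the total but not for damage to cells, whose part in this was not tested.

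Intercalated-like cells, the acid-base regulating cells that sit between principal cells and share their ducts, had little Lcn2. It was at 0.958 CPM in the 182 cells of Sham (2 UMIs), at 63.0 CPM in the 349 cells of IRI24h-TDN (303 UMIs, 56.1 to 70.6) and at 6.68 CPM in the 12 cells of IRI24h-TD (1 UMI). Connecting tubule-like cells of IRI24h-TDN were 44.7-fold higher (39.8 to 50.2), although the fold over Sham, 65.8 (18.1 to 546, from 2 Sham UMIs), had an interval that overlapped those of the ascending limb-like and connecting tubule-like cells. A single cell held 33.3% of the UMIs, and without it the level was 42.2 CPM. The Slc26a4-led cluster, which has the markers of type B cells, was at 52.7 CPM, and the cluster led by Slc4a1, Aqp6 and Kit, with those of type A cells, at 85.7 CPM, or 18.8 CPM without the fullest cell, so their order also turned on 1 cell.

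**Figure D2:**
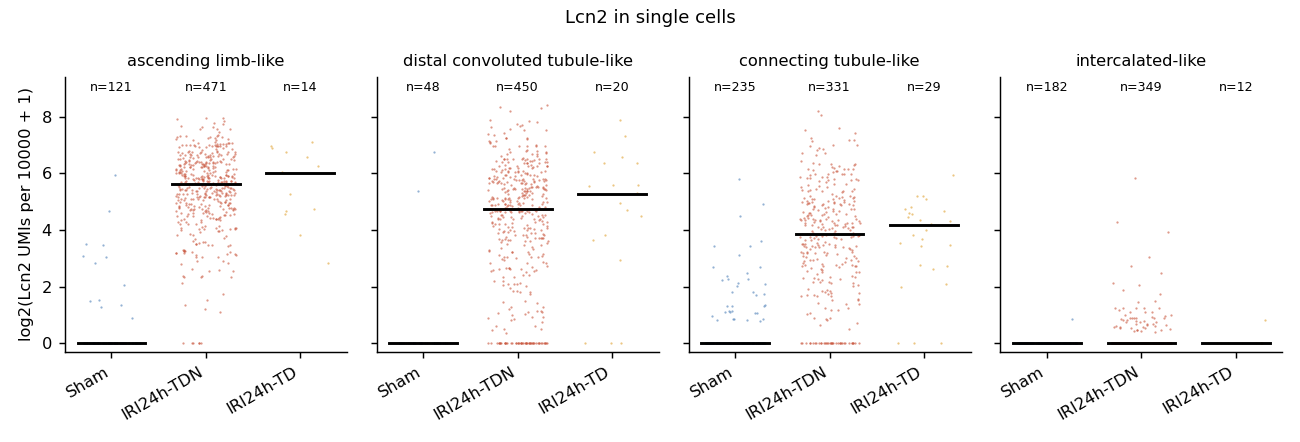
Lcn2 in every cell of the 4 distal classes, as log2(Lcn2 UMIs per 10000 UMIs + 1), by library; each point is a cell, the black bar is the median over cells, and n is the number of cells. The medians of IRI24h-TDN lie well above 0 in the first 3 classes, where 98.7%, 88.9% and 88.8% of cells carried Lcn2, and at 0 in intercalated-like cells, where 16.9% did.

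Proximal tubule-like cells, the main site of ischemic damage in the cortex, had hardly any Lcn2. The level was 0.431 CPM in the 1090 cells of Sham (4 UMIs, 0.118 to 1.1), 22.2 CPM in the 159 cells of IRI24h-TDN (64 UMIs, 17.1 to 28.4) and 76.3 CPM in the 113 cells of IRI24h-TD (100 UMIs, 62.1 to 92.8). Over Sham, IRI24h-TDN was 51.5-fold higher (19.2 to 195) but still below the intercalated-like cells, which were 2.84-fold higher (2.16 to 3.78). Havcr1, which encodes KIM-1 and is the standard proximal injury marker, was at 5.29 CPM in Sham and 2778 CPM in IRI24h-TDN in the same cells. The 128 cells of IRI24h-TDN with Havcr1 had 15.8 CPM of Lcn2 (11.3 to 21.5) and the 31 cells without it 68.3 CPM (43.7 to 102). In IRI24h-TD the corresponding values were 16.1 CPM in 48 cells and 141 CPM in 65 cells, where 1 cell held 38 of the 100 UMIs of the class. In IRI24h-TDN 1 cell held 66.7% of the UMIs of the 31 cells, and without it they were at 24.9 CPM, while 1 of the 128 cells held 42.5% of theirs, and without it they were at 9.16 CPM. The size of the gap in IRI24h-TDN therefore rests on single cells. In IRI24h-TD the 65 cells were at 83.3 CPM without their fullest cell. The cells with the KIM-1 transcript were also the deeper ones (medians of 17698 against 12069 UMIs in IRI24h-TDN), and the part of depth in this was not tested.

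PEC-like cells, the flat lining cells of Bowman's capsule marked by Cp, were at 1.31 CPM in Sham (499 cells, 7 UMIs), 553 CPM in IRI24h-TDN (215 cells, 527 to 580) and 98.0 CPM in IRI24h-TD (225 cells, 87.1 to 110). The 2 IRI libraries differed 5.64-fold (4.98 to 6.41) and both were above Sham. In IRI24h-TDN, 33 cells without a Cp UMI held 852 of the 1681 Lcn2 UMIs, at 2058 CPM, against 316 CPM in the 182 cells with Cp. Cells with a Wt1 UMI, the gene the reporter follows, had 294 CPM in IRI24h-TDN and 70.5 CPM in IRI24h-TD, and those without it 1208 and 273 CPM. The clusters within the class were unequal, with 759 CPM in the one led by Gc, Wfdc16 and C3 and 33.9 CPM in the one led by Tnc, Cp and Wnt16, both in IRI24h-TDN. A single cell held 339 UMIs, and the class level without it was 443 CPM.

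Podocyte-like cells, the filtering cells of the glomerulus, made up most of each library and had the lowest level in IRI24h-TDN. Lcn2 was at 0.244 CPM in the 4393 cells of Sham (9 UMIs), at 8.95 CPM in the 5196 cells of IRI24h-TDN (444 UMIs, 8.14 to 9.83) and at 0.896 CPM in the 8905 cells of IRI24h-TD (76 UMIs, 0.706 to 1.12). Set over IRI24h-TD, which was also taken after IRI, IRI24h-TDN had a ratio of 7.82 to 12.9 in these cells. With all clusters named by their best marker score, including those left unnamed here, the level in IRI24h-TDN was 13.7 CPM. Of the 374 podocyte-like cells of IRI24h-TDN with Lcn2, 330 held 1 UMI.

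Among immune cells, neutrophil-like cells, the cells in which the protein was discovered, were few and rich in Lcn2. The 21 cells of Sham were at 1760 CPM (86 UMIs, 1408 to 2174), the highest level of any class in that library, and the 32 cells of IRI24h-TDN at 1143 CPM (284 UMIs, 1014 to 1284). The level after IRI was 0.649-fold that of Sham (0.509 to 0.837), the opposite direction to the tubule. S100a8, a granulocyte gene, was at 19241 CPM in the Sham cells and 2955 CPM in those of IRI24h-TDN, and the segment markers Umod, Slc12a1, Slc12a3, S100g and Aqp2 together at 40.9 and 1232 CPM. The Sham cells were shallow (median 1853 UMIs against 7215), and the part of these differences in the Lcn2 value was not tested. Monocytic-like cells had 0.57 CPM in Sham (336 cells, 1 UMI), 71.4 CPM in IRI24h-TDN (972 cells, 472 UMIs) and 16.1 CPM in IRI24h-TD (18 cells, 2 UMIs). Within IRI24h-TDN they ranged from 11.9 CPM in the H2-Ab1-rich cluster of antigen-presenting cells through 53.8 CPM in the C1q-rich cluster to 144 CPM in the cluster led by Chil3, Lyz2 and Fn1. Lymphocyte-like cells had no Lcn2 UMI in 43 cells of Sham, which allows up to 8.22% of cells with a UMI (exact interval) at a median of 2994 UMIs and sets no limit on cells that express the gene. In IRI24h-TDN 1 of 12 such cells held 2 UMIs.

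Stromal classes had an intermediate level in IRI24h-TDN that came from few cells. In the 105 endothelial-like cells of IRI24h-TDN the level was 407 CPM (354 to 465), but 11 cells held all 214 UMIs and 1 of them 108. Sham had no UMI in 203 such cells. Set against a floor of 3 UMIs over the class, IRI24h-TDN was 97.2-fold higher, with a counting interval of 32.8 to 475. The size of this fold depends on the floor. Without the cell of 108 UMIs the IRI24h-TDN level was 204 CPM. Mesangial-like cells were at 0.575 CPM in Sham (1 UMI), 97.1 CPM in IRI24h-TDN (263 UMIs) and had no UMI in the 15 cells of IRI24h-TD, which allows up to 35.5 CPM. Cells with the top 6% of doublet scores in IRI24h-TDN held 162 of these 263 UMIs and 205 of the 472 in monocytic-like cells. Without those cells the 2 levels were 44.2 and 46.0 CPM. The doublet score marked 73.0% of 200 artificial podocyte-distal doublets and 4.58% of the other cells.

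The share of cells with Lcn2 in IRI24h-TDN separated the same classes. It was 98.7% (97.2% to 99.5%) in ascending limb-like, 88.9% (85.6% to 91.6%) in distal convoluted tubule-like and 88.8% (84.9% to 92.0%) in connecting tubule-like cells, against 16.9% (13.1% to 21.3%) in intercalated-like, 18.2% (12.6% to 25.1%) in proximal tubule-like and 7.2% (6.51% to 7.93%) in podocyte-like cells. With every cell thinned to 2400 UMIs, to remove differences in depth, these shares were 97.2%, 81.1%, 76.2%, 4.6%, 3.21% and 1.85%. The 5 to 11 shallower cells in each of the first 3 classes were left out of the thinned values, with 1, 3 and 3 cells in the others. At the common depth, the interval in proximal tubule-like cells (1.05% to 7.32%) held that of podocyte-like cells (1.5% to 2.25%), so proximal Lcn2 was not detectable above the podocyte share at this depth, although the CPM from all UMIs was 2.48-fold that of podocyte-like cells (1.88 to 3.23). The intercalated-like interval (2.65% to 7.36%) lay above the podocyte one. In IRI24h-TD the thinned share had an interval of 8.0% to 24.7% in 80 proximal tubule-like cells and was 0.18% (0.101% to 0.297%) in podocyte-like cells, and these intervals were far apart.

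**Figure D3:**
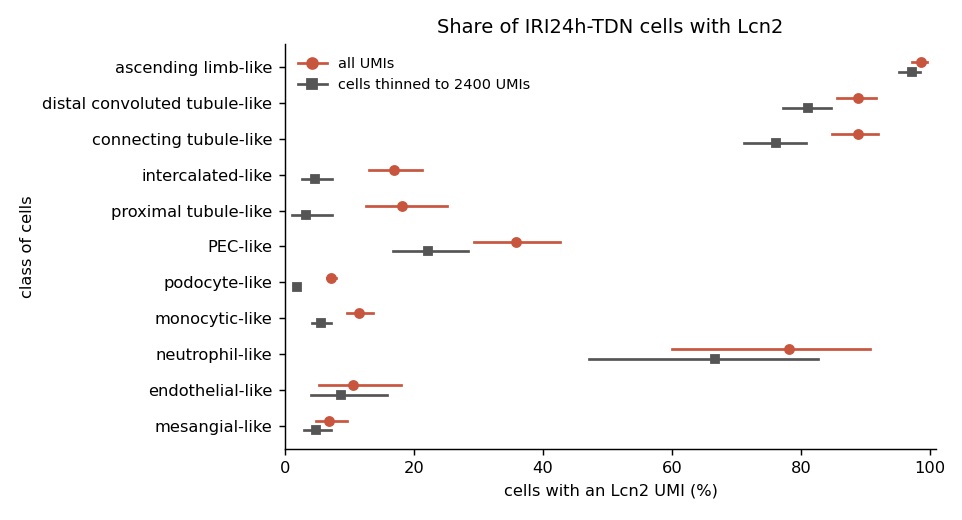
Share of IRI24h-TDN cells with at least 1 Lcn2 UMI in 11 classes, from all UMIs (red circles) and after thinning each cell to 2400 UMIs (grey squares), with exact 95% binomial intervals. The first 3 classes keep 97.2%, 81.1% and 76.2% after thinning, and the proximal tubule-like cells drop from 18.2% to 3.21%.

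Free RNA released by damaged cells can place UMIs in cells that do not make a transcript, and 1 source would keep its genes in a constant ratio. In IRI24h-TDN the 3 distal classes together had 85.6 Lcn2 UMIs per 100 UMIs of Umod, Slc12a1, Slc12a3, S100g and Aqp2. Taken singly they were at 123 in ascending limb-like, 111 in distal convoluted tubule-like and 32.7 in connecting tubule-like cells. The ratio was 59.9 in 444 barcodes with fewer than 200 genes, of which 13.5% had Lcn2 at a median of 2467 UMIs, and 47.6 in podocyte-like cells. Ratios of 83.7 in monocytic-like, 69.0 in mesangial-like and 92.8 in neutrophil-like cells of IRI24h-TDN were of the same order. PEC-like cells of IRI24h-TDN had a ratio of 437, above each distal class, and in IRI24h-TD they held 296 Lcn2 UMIs beside 16 of the segment markers. Endothelial-like cells of IRI24h-TDN were at 170, but 1 cell held 108 of their 214 Lcn2 UMIs. Proximal tubule-like cells were at 22.9 in IRI24h-TDN and at 149 in IRI24h-TD, where the 3 distal classes together were at 79.3. Intercalated-like cells of IRI24h-TDN were at 4.14, and in them S100g had a UMI in 80.2% and Umod in 43.0% of cells. In Sham, neutrophil-like cells had 86 Lcn2 UMIs and 2 of the segment markers. The part of free RNA in any of these levels was not tested.

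The library of tdT+ cells alone held few distal cells, and those had Lcn2 levels of the same order. IRI24h-TD held 63 cells of the 3 distal segments. The ratio of IRI24h-TDN over IRI24h-TD was 0.832 in ascending limb-like cells (0.783 to 0.884), 0.76 in distal convoluted tubule-like cells (0.712 to 0.812) and 1.75 in connecting tubule-like cells (1.59 to 1.92). Single cells weigh heavily here: 1 of the 14 ascending limb-like cells held 26.1% of the Lcn2 UMIs of its class, and without it the level was 6103 CPM. Connecting tubule-like cells of IRI24h-TD included 13 of 29 cells under 2400 UMIs. Of the classes in which this ratio could be taken, proximal tubule-like cells had the lowest, 0.291 (0.209 to 0.403). Without their fullest cell, the IRI24h-TD level was 47.9 CPM.

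Genes that varied with Lcn2 from cell to cell were sought within the 4 distal classes of IRI24h-TDN. For each of 5883 genes found in at least 20% of these cells, Pearson's r with Lcn2 was taken on log1p(UMIs per 10000) within each class (471, 450, 331 and 349 cells), and the 4 values were averaged. The cells share a library and cells are not replicates, so r is given as a description. Most genes were near 0, the mean r running from -0.04 at the 5th percentile to 0.07 at the 95th.

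The highest mean r was that of Fth1, the heavy chain of the iron store ferritin, at 0.33. It was 0.47 in ascending limb-like, 0.30 in distal convoluted tubule-like, 0.39 in connecting tubule-like and 0.15 in intercalated-like cells. Fth1 was at 2317 CPM in the ascending limb-like cells of Sham and 8303 CPM in those of IRI24h-TDN, at 4647 and 11593 CPM in distal convoluted tubule-like, 1199 and 2130 CPM in connecting tubule-like and 2311 and 2294 CPM in intercalated-like cells. So the ferritin transcript was higher after IRI in the 3 segments rich in Lcn2 and level in the intercalated-like cells, which had little. It was also higher in proximal tubule-like cells, at 5384 and 14202 CPM, where Lcn2 was low.

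Ctsl, the lysosomal protease cathepsin L, came next at 0.24, then 1110008P14Rik, the neighbour of Lcn2 on the same strand, at 0.23, with 0.43 in connecting tubule-like cells. Spp1 (0.21) and Clu (0.17) went with Lcn2 in the ascending limb-like cells (0.52 and 0.35) and in the distal convoluted tubule-like cells (0.28 and 0.27). In connecting tubule-like cells both had values below 0 (-0.02 and -0.13), although their levels there were also higher after IRI, with Clu at 1634 CPM in Sham and 18643 CPM in IRI24h-TDN. Cd24a, a surface glycoprotein of tubular progenitor-like cells, was even across the first 3 classes (0.21, 0.25 and 0.23).

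Other genes went with Lcn2 mainly in connecting tubule-like cells. Among them were Ifitm3, an interferon-induced membrane protein (0.44), Ldhd, the D-lactate dehydrogenase (0.43), S100a11, a calcium-binding protein (0.41), Arpc1b, a subunit of the actin-nucleating Arp2/3 complex (0.38), and Mal2, an apical trafficking protein (0.36). This class mixes Aqp2-rich and Aqp2-poor cells, which differed in Lcn2 (3150 and 862 CPM in IRI24h-TDN). Finer clustering (resolution 2) gave its name to a cluster with Klk1 and Tmem52b among the leading genes and to another with Mal2. The part of this mix in r was not tested. The rest of the 15 highest were Cadm1, Dbi, Tmem176a and Mgst1, with mean r of 0.15 to 0.16. Of the 15 genes, 7 stayed among the 15 highest with cells thinned, with Spearman's rho, without the cells of highest doublet score and without intercalated-like cells: Arpc1b, Cd24a, Ctsl, Fth1, Ifitm3, Ldhd and Spp1.

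At the other end of the ranking, Atp6v1b1, a proton pump subunit, and Tmem52b each had a mean r of -0.15, followed by Usp2, Klk1 (kallikrein), Tmem72, Atp2b4, Ppm1l, Scn4b and Tmprss2 (-0.11). In connecting tubule-like cells Tmem52b was at -0.46 and Klk1 at -0.44, and in ascending limb-like cells at -0.04 and -0.12. The part of the mix of Aqp2-rich and Aqp2-poor cells in the connecting tubule-like values was not tested. Ppm1l was at -0.21 in distal convoluted tubule-like and -0.14 in connecting tubule-like cells, and Tmprss2 at -0.18 and -0.21. In connecting tubule-like cells the mitochondrial share of UMIs had r = -0.34 with Lcn2, and its part in the other values was not tested. In the other 3 classes that r lay between -0.06 and 0.08. Depth itself had r between -0.02 and 0.18 with Lcn2 over the 4 classes.

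**Figure D4:**
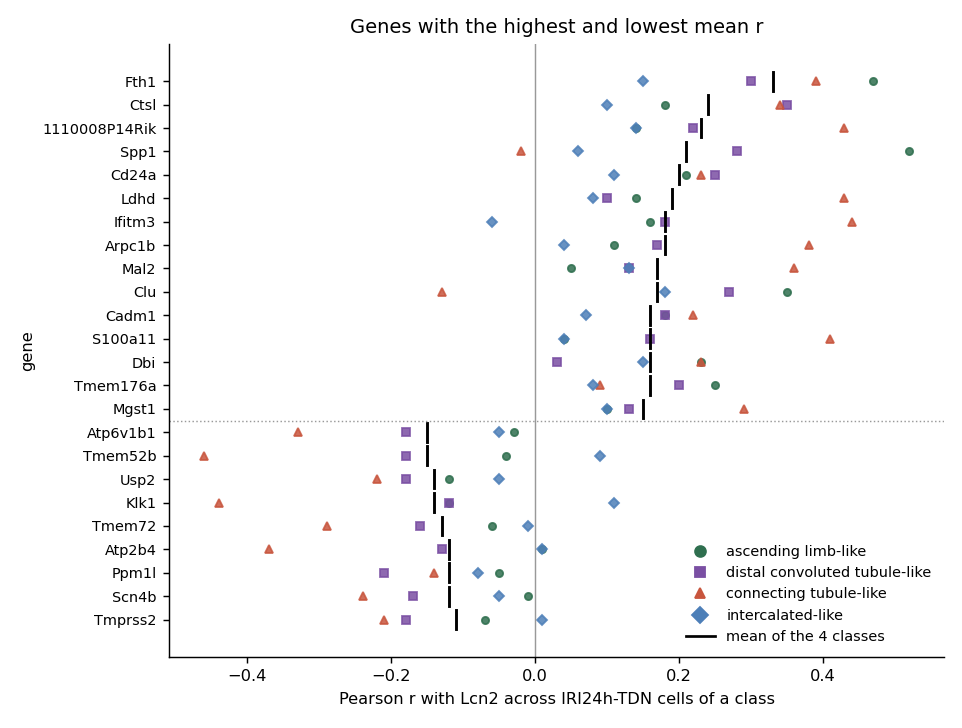
Pearson r with Lcn2 across IRI24h-TDN cells for the 15 genes with the highest and 9 of the 10 with the lowest mean r (black bars), by class (green circles ascending limb-like, purple squares distal convoluted tubule-like, red triangles connecting tubule-like, blue diamonds intercalated-like). Fth1 leads with a mean of 0.33, and Spp1 reaches 0.52 in ascending limb-like cells but -0.02 in connecting tubule-like cells.

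Likeness was also taken across cell types. Over 28 groups of 1 class in 1 library with at least 20 cells, the log2(CPM + 10) of Lcn2 was compared with that of 8757 genes. Ctsd, the lysosomal protease cathepsin D, and Mt2, a metal-binding metallothionein, had the highest Pearson r (0.83 each), followed by Clu (0.82), Mapk13, a p38 kinase (0.77), and Sphk1, which makes sphingosine 1-phosphate (0.77). The groups share libraries and classes, so this too is a description. Mt2 was at 80.8 CPM in the ascending limb-like cells of Sham and 1954 CPM in those of IRI24h-TDN, at 162 and 925 CPM in distal convoluted tubule-like cells, and at 14.6 and 25.4 CPM in podocyte-like cells. Ctsd was at 246 CPM in the distal convoluted tubule-like cells of Sham and 2052 CPM in those of IRI24h-TDN, and 107 and 81.9 CPM in podocyte-like cells. Clu was the only gene among both these 5 and the 15 above.

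To set Lcn2 beside the rest of the transcriptome, the fold of IRI24h-TDN over Sham was taken for every gene with at least 20 UMIs in the 2 libraries together. With 1 library per group this is a count past a fold of 2 and not a test. In ascending limb-like cells Lcn2 ranked 7 of 10336 genes by log2 fold, in connecting tubule-like cells 17 of 10403, in intercalated-like cells 4 of 10653, in proximal tubule-like cells 34 of 11550 and in distal convoluted tubule-like cells, where 305 genes had no UMI in Sham, 51 of 10503.

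The receptors and partners of NGAL were measured in the same cells. Slc22a17, the proposed cell-surface receptor for NGAL in the distal nephron, had 26 UMIs in the 121 ascending limb-like cells of Sham and 46 in the 471 of IRI24h-TDN (log2 fold of CPM -1.71, -2.44 to -0.96). In connecting tubule-like cells it was at 76.8 and 32.4 CPM (-1.25, -1.62 to -0.88), in intercalated-like cells at 44.5 and 29.8 CPM (-0.58, -0.97 to -0.19) and in distal convoluted tubule-like cells at 9.83 and 6.4 CPM, where the interval held 0. Lrp2, which encodes megalin, was at 2626 CPM in the proximal tubule-like cells of Sham and 463 CPM in those of IRI24h-TDN (-2.50, -2.58 to -2.42). In podocyte-like cells Lrp2 was at 13.2 and 0.423 CPM. Slc22a17 was thus lower after IRI in 3 of the 4 distal classes, and in the distal convoluted tubule-like cells it had too few UMIs to tell. The drop was not particular to the distal nephron. Slc22a17 was at 21.7 and 4.51 CPM in proximal tubule-like, 47.4 and 12.2 CPM in PEC-like and 9.41 and 2.4 CPM in podocyte-like cells. Neutrophil-like cells went the other way, at 0 and 12.1 CPM (3 UMIs). Mmp9, which encodes the gelatinase, was highest in neutrophil-like cells, at 1064 CPM in Sham and 552 CPM in IRI24h-TDN, and at most 42.5 CPM in any other class. Mc4r, a receptor reported for NGAL in the brain, had no UMI in the 5 tubular classes.

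Of the 19 receptors and factors upstream of Lcn2, 17 had enough UMIs in ascending limb-like cells, and 5 of them were at least 2-fold higher and 1 at least 2-fold lower in IRI24h-TDN, with a median log2 fold of 0.68 against -0.07 over all genes. Over all genes of that class 9.46% were at least 2-fold higher and 11.9% at least 2-fold lower. Counts of higher genes were 5 of 18 in distal convoluted tubule-like cells (all genes 11.0%), 3 of 17 in connecting tubule-like cells (8.91%), 6 of 16 in intercalated-like cells (9.12%) and 10 of 17 in proximal tubule-like cells (15.2%), with none at least 2-fold lower (all genes 11.1%, 7.57%, 6.50% and 15.3%).

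Cebpd, which encodes the acute-phase factor C/EBP delta, was past 2-fold in each of these classes, at 38.1 and 151 CPM in ascending limb-like, 103 and 254 CPM in distal convoluted tubule-like, 41.6 and 129 CPM in connecting tubule-like and 286 and 844 CPM in intercalated-like cells. Of the 4 distal classes, intercalated-like cells had the most Cebpd and the least Lcn2. A link between the 2 genes was not tested. Osmr, the oncostatin M receptor, stood at 4.62 and 20.1 CPM in ascending limb-like cells (log2 fold 2.12, 0.72 to 4.02), at 0.539 and 24.0 CPM in proximal tubule-like cells and at 0 and 11.9 CPM in intercalated-like cells. Il1r1, the interleukin-1 receptor, was at 82.7 and 66.3 CPM in connecting tubule-like and 43.6 and 42.9 CPM in intercalated-like cells, and Il17ra, a subunit of the interleukin-17 receptor, at 19.6 and 15.1 CPM in ascending limb-like cells. Stat3 had levels of 183 and 348 CPM in ascending limb-like and 169 and 340 CPM in distal convoluted tubule-like cells (log2 folds 0.92 and 1.01). Relb and Nfkb2, which encode subunits of NF-kB, each rested on 1 Sham UMI in distal convoluted tubule-like cells (log2 folds 3.09, 0.58 to 8.41, and 2.81, 0.29 to 8.13).

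NF-kB and acute-phase targets were at least 2-fold higher in 8 of 14 measured genes in ascending limb-like, 5 of 15 in distal convoluted tubule-like, 7 of 12 in connecting tubule-like, 10 of 13 in intercalated-like and 13 of 15 in proximal tubule-like cells, and at least 2-fold lower in 1 gene each in distal convoluted tubule-like (C3) and proximal tubule-like cells (Pigr), with median log2 folds of 1.36, 0.66, 1.05, 2.32 and 2.24. Over all genes tested, 9.46%, 11.0%, 8.91%, 9.12% and 15.2% were at least 2-fold higher in these 5 classes. At least 2-fold lower were 11.1% of all genes in distal convoluted tubule-like and 15.3% in proximal tubule-like cells. Cxcl1, a neutrophil-attracting chemokine, was at 5.77 and 28.8 CPM in ascending limb-like and 2.67 and 34.5 CPM in connecting tubule-like cells. Pigr, the receptor that carries immunoglobulin A across epithelia, was at 32.6 and 743 CPM in intercalated-like cells. Fga and Fgg, fibrinogen chains, came from 1 Sham UMI each in intercalated-like cells, with log2 folds of 6.22 (3.72 to 11.53) and 7.83 (5.34 to 13.13). C3, the central complement component, was at 13.1 and 1.89 CPM in distal convoluted tubule-like cells and at 19.7 and 96.9 CPM in proximal tubule-like cells. In distal convoluted tubule-like cells Fga and Fgg had no Sham UMI, and their log2 folds of 1.26 against the floor of 3 UMIs have intervals that hold 0 (-0.34 to 3.57). The classes with the highest medians on this list were the intercalated-like and proximal tubule-like cells, which had the least Lcn2 of the tubule. A link between the list and Lcn2 was not tested.

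Of the tubular injury genes, 17 of 21 were at least 2-fold higher in ascending limb-like, 11 of 22 in distal convoluted tubule-like, 14 of 18 in connecting tubule-like, 18 of 20 in intercalated-like and 17 of 21 in proximal tubule-like cells, against 9.46%, 11.0%, 8.91%, 9.12% and 15.2% of all genes. Timp2 was at least 2-fold lower in ascending limb-like and proximal tubule-like cells, where 11.9% and 15.3% of all genes were. Spp1 was at 4532 and 42722 CPM in ascending limb-like and 1007 and 19726 CPM in intercalated-like cells. Cdkn1a, the cell cycle inhibitor p21, was at 16.2 and 166 CPM in ascending limb-like cells. In connecting tubule-like cells Krt19, a simple epithelial keratin, was at 3.20 and 301 CPM and S100a6, a calcium-binding protein, at 17.1 and 724 CPM. Sox9, a regenerative transcription factor, was at 4.27 and 67.7 CPM there. S100a6 had r = -0.24 with Lcn2 across ascending limb-like cells and 0.30 across connecting tubule-like cells. Injury genes thus differed in whether they followed Lcn2 from cell to cell, and over the 17 that could be measured the median of the mean r was 0.04, against 0.01 over all genes.

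Of 13 iron handling genes, 4 were at least 2-fold higher in ascending limb-like cells (9.46% of all genes), namely Hmox1 (heme oxygenase 1), Fth1, Slc39a14 (an importer of zinc and iron) and Slc40a1 (ferroportin, the iron exporter). In distal convoluted tubule-like cells 3 were higher and 2 lower (11.0% and 11.1% of all genes), and in connecting tubule-like cells 1 and 2 (8.91% and 7.57%). In intercalated-like cells 2 were higher and 0 lower (9.12% and 6.50%), and in proximal tubule-like cells, of 12, 2 and 0 (15.2% and 15.3%). Tfrc, the transferrin receptor, was lower in distal convoluted tubule-like cells (709 and 164 CPM, log2 fold -2.12) and in connecting tubule-like cells (240 and 85.6 CPM, -1.49). Slc40a1 was at 31.2 and 100 CPM in ascending limb-like cells, and Hmox1 at 71.8 and 447 CPM in intercalated-like cells. Ncoa4, the cargo receptor that delivers ferritin to lysosomes, was at 18.0 and 5.38 CPM in distal convoluted tubule-like cells (-1.74, -2.74 to -0.62). Ftl1, the ferritin light chain, stood at 773 and 701 CPM in ascending limb-like cells, where Fth1 was past 2-fold. Across cells, 9 of the 10 iron genes that could be measured had a mean r with Lcn2 above 0 (all genes 63.6%), with a median of 0.04, as had 8 of 9 receptors and factors (0.04) and 3 of 4 NF-kB and acute-phase targets (0.06).

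**Figure D5:**
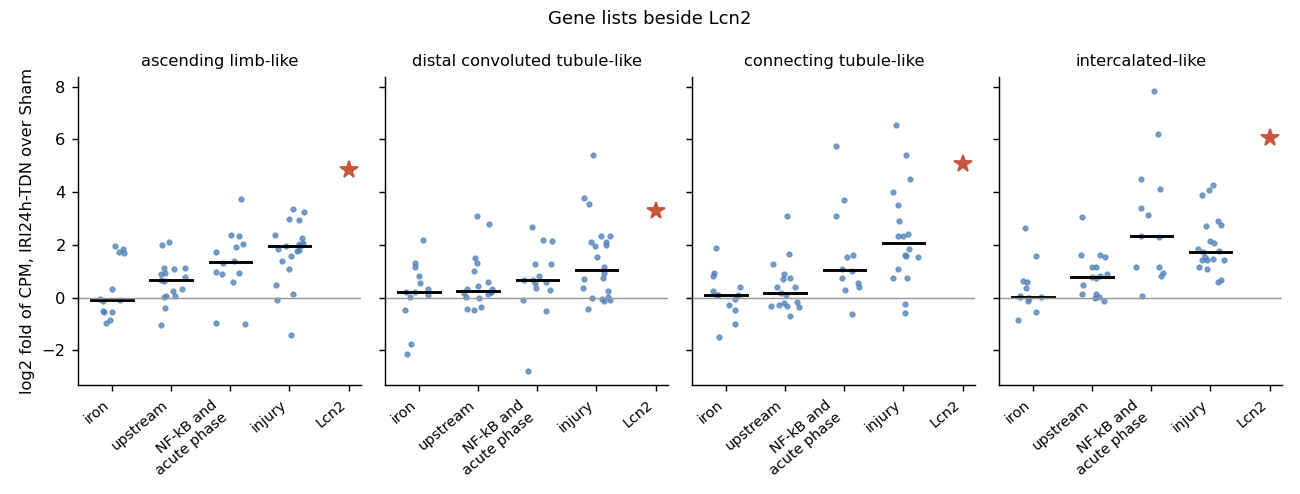
Log2 fold of CPM in IRI24h-TDN over Sham for the measured genes of 4 lists (blue points, black bar at the median) and for Lcn2 (red star), in the 4 distal classes. Genes without a Sham UMI are drawn against a floor of 3 UMIs. Lcn2 lies at 4.83, 3.30, 5.06 and 6.04, above the median of each list, the highest of which is 2.32.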

How the data were processed

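Cells were captured with the BD Rhapsody system, and the authors deposited, for each of the 3 libraries, the counts of UMIs by gene in each barcode. Sham and IRI24h-TDN each came with 20800 genes and 10062 barcodes, and IRI24h-TD with 19242 genes and 9884 barcodes. Whether any of these was cut short is not known. A gene that a library lacked was counted as 0. The submitters' processing notes name CASAVA 1.8, UMI-tools, Seurat and mm10, with no role given, and the values are whole-number counts that were not normalized. Levels are summed Lcn2 UMIs over all UMIs of a class, as CPM.

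Barcodes with at least 200 genes and at most 50% mitochondrial UMIs were kept. Cells were clustered on 2000 variable genes (30 principal components, Harmony-type correction between libraries with theta 2, 15 neighbours, Leiden resolution 1), leaving out Lcn2, the genes of the lists that are not markers, and mitochondrial, ribosomal and haemoglobin genes. The 31 clusters were named from 13 marker lists. Rules that left 5 clusters unnamed (led by mitochondrial genes, shallow with no marker, or closer to another class) were added after Lcn2 by class had been seen, and the tubular classes are the same without them. Doublets were scored with simulated pairs and left in, and 6% with the highest scores were left out as an alternative.

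Intervals are exact Poisson, Clopper-Pearson or ratio intervals (95%) and cover counting error only, which understates the spread between cells. With 1 library per group no test was made. Correlations used genes in at least 20% of cells, and folds used genes with at least 20 UMIs. Lcn2 and the gene lists were chosen with earlier results of these data known. Named genes are the 15 highest and 10 lowest by mean r (1 of the lowest is not reported here), the 5 most alike over groups, the 4 list members with the largest absolute fold in a distal class, and receptors or factors of Lcn2. Ftl1, Slc34a1, Havcr1 and the list genes given for proximal tubule-like cells were named after their values had been seen. Scripts were tested on simulated data. Python 3.11.15, numpy 2.4.6, scipy 1.17.1, pandas 2.3.3, scikit-learn 1.9.0, igraph 0.11.9, leidenalg 0.10.2 and, for TMM factors, edgeR 4.0.16 in R 4.3.3 were used.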

Additional observations from a re-analysis of the deposited data

Results flagged for a closer look

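Barcodes outside the kept cells also held Lcn2 in IRI24h-TDN. In the 444 barcodes with fewer than 200 genes the level was 72.7 CPM (58.8 to 89.0), against 0.338 CPM in the 1547 such barcodes of Sham, and 95.9% of the UMIs of the median barcode there were mitochondrial. In the 594 barcodes over the mitochondrial limit the level was 987 CPM (951 to 1025), with Lcn2 in 53.7% of them, against 3.58 CPM in 468 barcodes of Sham and 120 CPM in 77 barcodes of IRI24h-TD. These signals stand above those of the Sham barcodes.

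Neutrophil-like cells went the other way from the tubule, with a log2 fold of -0.62 in IRI24h-TDN over Sham, while the folds of all other classes with more than 3 Lcn2 UMIs in either library were above 0. This difference in direction was not tested. It rests on 21 and 32 cells, and without the cell with the most Lcn2 in each group the levels were 1414 CPM in Sham and 744 CPM in IRI24h-TDN.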

How the results depend on the processing

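Of 85 recomputed log2 folds, 72 stayed within the counting interval of the reported value and 13 moved beyond it, and of 41 shares 32 stayed and 9 moved. The count of genes going with Lcn2 was judged by size, and 4 of its 5 alternatives were within 1.5 times of it. Direction turned in 0 of the 85 log2 folds, and the shares and counts have no direction to turn. The cause of each move was not tested, except where leaving out cells or UMIs is itself the change. For the log2 fold in ascending limb-like cells (4.83), the values outside the interval were 4.01 with at least 500 genes and at most 25% mitochondrial UMIs, 5.51 thinned to 2400 UMIs, 6.76 without the 1% of cells with the most Lcn2 and 6.03 without the fullest Sham cell. In distal convoluted tubule-like cells (3.30) they were 2.35 with the stricter filter, 3.55 without the highest doublet scores, 4.42 with each cell named by its own scores, 4.0 thinned, 5.74 without the 1% and 5.85 without the fullest Sham cell. Connecting tubule-like cells (5.06) gave 5.6 without the 1% and 5.34 without the fullest Sham cell, and intercalated-like cells (6.04) 4.11 thinned. The share of cells with Lcn2 was 95.2% with the stricter filter, 96.5% without a mitochondrial limit, 95.5% by own scores and 97.2% thinned in ascending limb-like cells, 64.8% by own scores and 81.1% thinned in distal convoluted tubule-like cells, 82.9% without a mitochondrial limit and 76.2% thinned in connecting tubule-like cells, and 4.6% thinned in intercalated-like cells. Of the 15 genes that went with Lcn2, 9 were shared after thinning. The naming without added rules and the fit without the fullest Sham cell were chosen after seeing the data. In the main clustering, naming without the added rules left the tubular classes unchanged. Its folds and shares in those classes, and its count of genes, could therefore only stay, and they are included in the counts above. TMM scaling would add 0.17, 0.15, 0.06 and 0.05 to the log2 folds of the 4 distal classes and -0.17 to those of proximal tubule-like cells.

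No value was obtained for the thinned folds of proximal tubule-like and podocyte-like cells, for the folds without the 1% in intercalated-like, proximal tubule-like and podocyte-like cells, for the proximal tubule-like fold without correction between libraries, or for the intercalated-like fold without the fullest Sham cell. No paired analysis was possible because each group is 1 library. With few Sham UMIs outside the 3 distal segments, depth limits those folds to wide intervals.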
